A study of Mus musculus with 574 samples.

Results

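Imprinted genes are transcribed mainly from the copy inherited from a single parent, and many of them regulate growth or are abundant in the developing brain. The 10 genes described here were chosen by name: Igf2, H19, Dlk1, Meg3, Peg3, Ndn, Magel2, Nnat, Grb10 and Plagl1, and all 10 were found among the 23706 genes of the table of cell pools and the 25489 genes of the table of single cells. In mice Igf2, Dlk1, Peg3, Ndn, Magel2, Nnat and Plagl1 are known as paternally expressed, H19 and Meg3 as maternally expressed, and Grb10 as maternally expressed in most tissues but paternally expressed in neurons. The deposited values do not separate parental alleles, so only the total level of each transcript was measured.

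The cells came from the ventral midbrain of C57BL/6 embryos heterozygous for Lmx1a-EGFP, a reporter that marks cells expressing the floor plate transcription factor Lmx1a, and the reporter was carried by every embryo of every group. Sorted pools of 100 cells made up 4 groups of 6: GFP positive and GFP negative at E13.5 (E for embryonic day), and GFP positive and GFP negative at E10.5. The 550 single cells were divided over the stages E10.5 (24.9%), E11.5 (16.4%), E12.5 (32.4%) and E13.5 (26.4%), and their GFP class is not in the labels. All libraries were made with Smart-seq2, which copies full-length transcripts, and levels are RPKM (reads per kilobase of transcript, scaled to the reads of the library).

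EGFP was at 51.1 to 80.3 RPKM in E13.5 GFP positive pools, at 0 in all E13.5 GFP negative pools, at 170.4 to 231 in E10.5 GFP positive pools and at 0 to 5.82 in E10.5 GFP negative pools. The summed level of 12 floor plate markers was 485 to 722 RPKM in E13.5 GFP positive pools and 97.3 to 167.98 in E13.5 GFP negative pools, and 1088 to 1231 in E10.5 GFP positive pools and 310.0 to 456 in E10.5 GFP negative pools. In each pool 13313 to 14499 genes reached an RPKM of 1, and the read depth of the pools is unknown. The E10.5 GFP negative pools also held transcripts of other cell types. Their summed level of 8 mesenchyme and pericyte markers was 114.96 to 292 RPKM, against 5.55 to 29.7 in E10.5 GFP positive pools, and that of 8 red blood cell markers 35.1 to 71193, against 26.9 to 81.6. Microglia and macrophage markers summed to between 0 and 496 RPKM there, and endothelium markers to between 2.33 and 68.4, against at most 0.193 and 3.29 in E10.5 GFP positive pools. Some E13.5 GFP negative pools held such transcripts too: red blood cell markers summed to 9576 and 9778 RPKM in pools 3 and 5 (at most 23.8 in E13.5 GFP positive pools), microglia and macrophage markers to 329 in pool 5 (at most 0.536) and endothelium markers to 53.1 in pool 4 (at most 7.34). Their part in the E13.5 GFP differences was not tested, and each member's call at E13.5 held without any 1 of these pools. The labels name no embryo or litter, so p-values reflect nothing beyond the pool-to-pool spread, part or all of which may be technical. In pools, a higher share of cells of a type and more RNA per cell cannot be told apart.

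Of the 10 genes, 6 lie next to another member, in 3 imprinted clusters. H19 (chr7:142575529-142578143, minus strand, GRCm38) and Igf2 (chr7:142650766-142666816, minus strand) are 72.6 kb apart. Dlk1 (chr12:109452823-109463336) and Meg3 (chr12:109541001-109571726), both on the plus strand, are 77.7 kb apart. Ndn (chr7:62346569-62350262) and Magel2 (chr7:62377010-62381640), both on the plus strand, are 26.7 kb apart. Peg3 (chr7:6703892-6730431, minus strand), Nnat (chr2:157560078-157562522, plus strand), Grb10 (chr11:11930508-12038683, minus strand) and Plagl1 (chr10:13060504-13131694, plus strand) are each without a member beside them. Nnat lies inside Blcap on the opposite strand, and Igf2 overlaps the antisense transcript Igf2os. The noncoding RNA Gm32061 (chr7:62337794-62423245) spans both Ndn and Magel2 on the opposite strand. Gm26906 lies opposite Meg3, and Gm49394 overlaps Igf2 on the same strand. Whether counting used strand is not given in the sources used here, so reads from such partners cannot be told apart.

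The promoter windows of the neighbours Ndn and Magel2 and Dlk1 and Meg3 are shown because these pairs turned out most alike across single cells, and that of Peg3 because it holds the only match to the Plagl1 motif among the members. Each window runs from 250 bases before to 50 after the start in RefSeq (GRCm38.p6), written 5′ to 3′ along the gene's strand, and capitals mark motif matches. The Ndn window is chr7:62348027-62348326, that of Magel2 chr7:62376729-62377028, that of Dlk1 chr12:109452573-109452872, that of Meg3 chr12:109540746-109541045 and that of Peg3 chr7:6730370-6730669.
Ndn: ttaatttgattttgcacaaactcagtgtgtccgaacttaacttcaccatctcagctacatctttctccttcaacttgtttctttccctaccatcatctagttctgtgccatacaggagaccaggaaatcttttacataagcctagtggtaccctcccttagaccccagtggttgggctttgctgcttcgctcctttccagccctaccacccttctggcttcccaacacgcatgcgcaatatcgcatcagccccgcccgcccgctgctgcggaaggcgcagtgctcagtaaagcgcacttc
Magel2: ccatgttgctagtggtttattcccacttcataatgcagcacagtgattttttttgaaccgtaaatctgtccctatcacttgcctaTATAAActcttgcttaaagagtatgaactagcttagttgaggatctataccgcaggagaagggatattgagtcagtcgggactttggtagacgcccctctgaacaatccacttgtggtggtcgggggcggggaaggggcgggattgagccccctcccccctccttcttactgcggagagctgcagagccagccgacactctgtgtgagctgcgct
Dlk1: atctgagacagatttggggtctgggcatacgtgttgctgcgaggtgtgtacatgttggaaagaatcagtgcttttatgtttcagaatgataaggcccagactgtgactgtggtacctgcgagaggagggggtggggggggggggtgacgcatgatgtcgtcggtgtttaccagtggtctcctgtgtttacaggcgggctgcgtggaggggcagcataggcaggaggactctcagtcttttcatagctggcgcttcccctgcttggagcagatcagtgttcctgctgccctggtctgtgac
Meg3: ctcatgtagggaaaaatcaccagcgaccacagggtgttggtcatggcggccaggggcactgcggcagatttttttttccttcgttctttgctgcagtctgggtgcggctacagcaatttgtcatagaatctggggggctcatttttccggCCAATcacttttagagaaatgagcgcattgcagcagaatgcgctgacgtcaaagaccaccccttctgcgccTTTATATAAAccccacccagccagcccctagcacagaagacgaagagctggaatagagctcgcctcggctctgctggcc
Peg3: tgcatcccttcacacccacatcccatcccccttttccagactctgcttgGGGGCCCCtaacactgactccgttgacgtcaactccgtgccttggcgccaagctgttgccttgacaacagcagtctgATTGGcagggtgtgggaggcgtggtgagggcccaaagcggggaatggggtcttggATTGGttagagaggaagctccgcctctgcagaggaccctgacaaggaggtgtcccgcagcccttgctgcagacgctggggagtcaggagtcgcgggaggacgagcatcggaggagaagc

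The motifs searched on both strands were GGGGCCCC for Plagl1, the YY1 motif, TATAAA and CCAAT. Of all 32851 RefSeq windows of this length, 1.08% held GGGGCCCC, 0.986% the YY1 motif, 13.6% TATAAA and 37.4% CCAAT. Peg3 had GGGGCCCC at position -201, counted from the start, and CCAAT on the opposite strand, printed as ATTGG, at -124 and -69. In the Meg3 window shown, the first of 2, TATAAA occurred on both strands as 1 overlapping run at -29 and -25, with CCAAT at -100, and in the Magel2 window TATAAA occurred at -165. Ndn and Dlk1 had no match, and no window of the 9 members with a RefSeq window held the YY1 motif. The windows held 11 CpG in Ndn, 10 in Magel2, 9 in Dlk1 and 13 each in Meg3 and Peg3, against a median of 7 over all windows. The second Meg3 window held 1 CpG and no match. The first Grb10 window was the richest of the members with 45 CpG, more than in 98.1% of all windows.

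H19 contains the hairpin of miR-675, and its mature products are shown because they are the known processed output of this noncoding RNA. Capitals mark the seed, bases 2 to 8, in the RefSeq sequences (GRCm38.p6), and the microRNAs themselves were not measured. They lie on the minus strand at chr7:142577112-142577133 (5p) and chr7:142577078-142577099 (3p).
mmu-miR-675-5p: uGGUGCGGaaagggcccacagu
mmu-miR-675-3p: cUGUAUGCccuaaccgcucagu

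Comparing the GFP classes at each stage sets cells of the Lmx1a domain against the other cells of the tissue. At E13.5, 2 of the 10 genes were higher in GFP positive pools, H19 and Grb10, and 3 were lower, Meg3, Ndn and Magel2, at a limma adjusted p under 0.05. Of all 15871 genes tested 7.15% passed, 3.42% as higher and 3.74% as lower. The 10 genes had a median log2 difference of 0.15, against -0.03 over all genes tested. In 3 of the 10 the 6 GFP positive and 6 GFP negative values did not overlap, as in 4% of all genes.

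At E10.5, 1 of the 10 was higher in GFP positive pools, Peg3, and 7 were lower: Igf2, Dlk1, Meg3, Ndn, Magel2, Nnat and Plagl1. Over all genes 13.1% passed, 4.51% as higher and 8.64% as lower. The median of the 10 was -1.49, against -0.01 over all genes, and 4 of the 10 did not overlap, against 7.59% of all genes. All 12 genes of a pan-neuronal list were lower in the same pools, with a median of -2.32, and their summed level was 344 to 618 RPKM in E10.5 GFP positive pools and 1602 to 2966 in E10.5 GFP negative pools. At E13.5 that sum was 5087 to 5672 in GFP positive and 5309 to 5952 in GFP negative pools. The part of neuronal content in the differences of the imprinted genes was not tested.

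Stages were compared within each GFP class. In GFP positive pools 6 of the 10 were higher at E13.5 than at E10.5 (Dlk1, Meg3, Ndn, Magel2, Nnat and Plagl1) and 3 lower (Igf2, H19 and Grb10), where 51.7% of all genes passed, 22.1% as higher and 29.6% as lower. Their median was 1.83, against -0.14 over all genes, and 7 of the 10 did not overlap, against 29.9% of all genes. In GFP negative pools 5 were higher at E13.5 (Meg3, Peg3, Ndn, Magel2 and Nnat) and 4 lower (Igf2, H19, Grb10 and Plagl1), where 46.6% of all genes passed, 19.7% as higher and 26.9% as lower. The median there was 0.49, against -0.11, and 8 of the 10 did not overlap, against 25.6% of all genes. The GFP difference itself differed between stages for 7 of the 10, with 6 higher at E13.5 and 1 lower, where 5.83% of all genes passed, 3.93% as higher and 1.9% as lower.

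**Figure D1:**
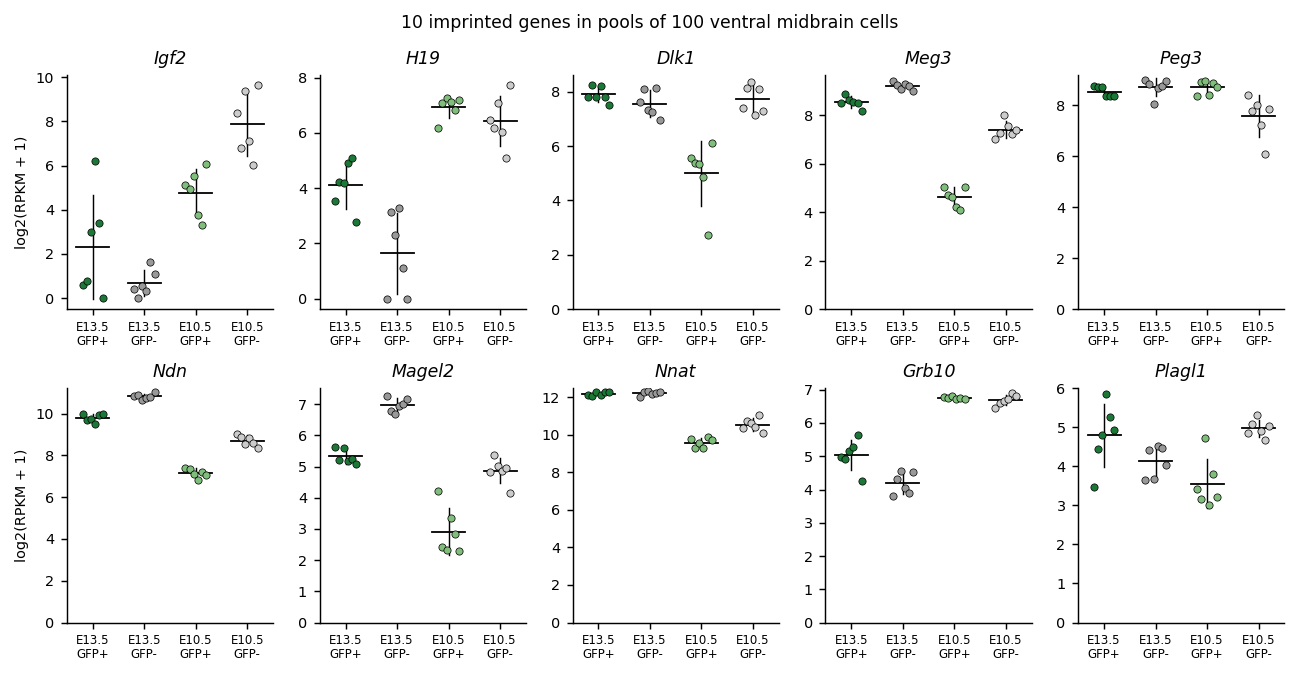
Levels of the 10 imprinted genes in 24 pools of 100 cells, as log2(RPKM + 1), with 1 point per pool, a horizontal line at the mean and a vertical line of 1 SD, for 6 pools per group. Igf2, H19 and Grb10 sit higher in the E10.5 groups, and Meg3, Ndn, Magel2 and Nnat sit lowest in E10.5 GFP positive pools.

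Igf2, a secreted growth factor that signals through the IGF1 receptor, was at 0 to 73.7 RPKM in E13.5 GFP positive pools (median 3.76) and at 0 to 2.09 in E13.5 GFP negative pools (median 0.398). In E10.5 GFP positive pools it was at 9.04 to 65.5 RPKM (median 31.4) and in E10.5 GFP negative pools at 63.9 to 797 (median 238). The lowest E10.5 GFP negative pool lay just under the highest GFP positive one, and the E13.5 groups overlapped. Igf2 was lower in GFP positive pools at E10.5 by a log2 difference of -3.12 ± 0.78 (SE; limma adjusted p = 0.0061), and adjusted p was 0.0555 with a pseudocount of 0.1, the highest over the alternatives and the fits without 1 pool, where the lowest was 0.000792. The E13.5 difference of 1.66 ± 0.78 did not pass the test (adjusted p = 0.226) and was 0.88 without E13.5 GFP positive pool 4. Igf2 fell with stage, with E13.5 minus E10.5 differences of -2.46 ± 0.78 in GFP positive pools (adjusted p = 0.00957) and -7.23 ± 0.78 in GFP negative pools (adjusted p = 2.19e-08), on the log2(RPKM + 1) scale. With a pseudocount of 0.1 these were -3.40 and -8.80. Without E13.5 GFP positive pool 4, the one at 73.7 RPKM, the stage difference in GFP positive pools was -3.24 (adjusted p = 0.000173).

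E10.5 GFP negative pools 1 to 6 had 338, 110.8, 666, 138.7, 63.9 and 797 RPKM of Igf2. The same pools had summed mesenchyme and pericyte levels of 135.1, 191, 217, 237, 114.96 and 292 RPKM. The pool with most Igf2 was also highest in these markers and the pool with least Igf2 lowest, while pools 1 and 2, 1 and 4, and 3 and 4 stood in the opposite order. Endothelium markers summed to 20.6, 8.59, 68.4, 4.05, 2.33 and 31.7 RPKM in pools 1 to 6. For these, pools 2 and 4, and 3 and 6 stood in the opposite order to Igf2. Of the 8 mesenchyme and pericyte markers, 6 passed 10 RPKM in at least 1 of the E10.5 GFP negative pools, against 2 in E10.5 GFP positive and 0 in E13.5 pools of either class. Rgs5, a pericyte marker, was at 0 in all E10.5 GFP positive pools, and Col3a1 and Dcn were at 0 in all E13.5 GFP positive pools. The part of either cell type in the Igf2 difference was not tested.

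H19, a noncoding RNA transcribed beside Igf2, was at 5.79 to 33.4 RPKM in E13.5 GFP positive pools (median 17.3) and at 0 to 8.64 in E13.5 GFP negative pools (median 2.54), of which 2 were listed at 0. It was at 72.4 to 151.6 RPKM in E10.5 GFP positive pools (median 137.1) and at 33.3 to 211 in E10.5 GFP negative pools (median 79.6). The groups of each stage overlapped, and every E10.5 pool had 33.3 RPKM or more. The GFP positive class was higher in H19 at E13.5 by 2.49 ± 0.51 (adjusted p = 0.00215), or 3.73 with a pseudocount of 0.1, where it also passed, while the E10.5 difference of 0.51 ± 0.51 did not pass the test (adjusted p = 0.595). Its stage differences were -2.83 ± 0.51 in GFP positive pools (adjusted p = 4.19e-05) and -4.80 ± 0.51 in GFP negative pools (adjusted p = 2.04e-08), the second -6.12 with a pseudocount of 0.1. The stage difference of its GFP difference, 1.97 ± 0.72, did not pass the test (adjusted p = 0.117), whereas that of Igf2 was 4.78 ± 1.10 (adjusted p = 0.00724) and 3.998 without E13.5 GFP positive pool 4.

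Grb10, an adaptor that binds the insulin and IGF1 receptors and dampens their signal, was at 18.2 to 48.3 RPKM in E13.5 GFP positive pools (median 32.4) and at 13.04 to 22.6 in E13.5 GFP negative pools (median 17.1). At E10.5 it was at 104.2 to 111.5 RPKM in GFP positive pools (median 107.2) and at 87.4 to 118.6 in GFP negative pools (median 102.8). All 12 E10.5 pools stood above all 12 E13.5 pools, and GFP classes overlapped at both stages. At E13.5 Grb10 was higher in the GFP positive class by 0.84 ± 0.17 (adjusted p = 0.0015). The summed level of 12 neural progenitor markers was 1620.45 to 2473 RPKM in E13.5 GFP positive pools and 691 to 1647 in E13.5 GFP negative pools, and 3095 to 3653 in E10.5 GFP positive pools and 2869 to 3685 in E10.5 GFP negative pools, and its part in the Grb10 differences was not tested. The E10.5 difference was 0.06 ± 0.17 (adjusted p = 0.875) and turned to -0.01 when values were rescaled without globin genes. Its stage differences were -1.72 ± 0.17 in GFP positive pools (adjusted p = 2.46e-09) and -2.51 ± 0.17 in GFP negative pools (adjusted p = 6.42e-12). The difference of its GFP differences, 0.78 ± 0.24, passed narrowly (adjusted p = 0.0486) and did not pass in 20 of the 24 fits without 1 pool, where adjusted p was 0.005 to 0.0878. With the processing varied instead, 5 of 8 settings gave a pass and the highest adjusted p was 0.074.

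Plagl1, a zinc finger transcription factor, was at 10.04 to 57.1 RPKM in E13.5 GFP positive pools (median 28.2) and at 11.6 to 21.8 in E13.5 GFP negative pools (median 17.9). It was at 6.99 to 25.2 RPKM in E10.5 GFP positive pools (median 9.01) and at 24.4 to 38.8 in E10.5 GFP negative pools (median 30.4). The E10.5 groups overlapped only in that the highest GFP positive pool stood just above the lowest GFP negative pool, and the E13.5 GFP positive pools spread widest. Plagl1 was lower in GFP positive pools at E10.5 by -1.42 ± 0.30 (adjusted p = 0.00149), and its E13.5 difference of 0.67 ± 0.30 did not pass the test (adjusted p = 0.21), except without E13.5 GFP positive pool 1, where it was 0.93 (adjusted p = 0.0355, against up to 0.443 without another pool). Its stage differences had opposite signs, 1.24 ± 0.30 in GFP positive pools (adjusted p = 0.0012) and -0.85 ± 0.30 in GFP negative pools (adjusted p = 0.0238). The second did not pass without E10.5 GFP negative pool 3, E13.5 GFP negative pool 1 or E13.5 GFP negative pool 3 (adjusted p = 0.051, 0.0567 and 0.0564). The difference between them was 2.09 ± 0.43 (adjusted p = 0.00275).

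Dlk1, a transmembrane protein related to the Notch ligand Delta, was at 182 to 299.7 RPKM in E13.5 GFP positive pools (median 225) and at 122.5 to 283 in E13.5 GFP negative pools (median 177.3). It was at 5.56 to 68.99 RPKM in E10.5 GFP positive pools (median 39.98) and at 142.1 to 325 in E10.5 GFP negative pools (median 219.95). E10.5 GFP positive pools stood below all 18 other pools. Dlk1 was lower in GFP positive pools at E10.5 by -2.74 ± 0.36 (adjusted p = 3.98e-06), with no difference past the test at E13.5 (0.34 ± 0.36, adjusted p = 0.688). It rose with stage by 2.90 ± 0.36 in GFP positive pools (adjusted p = 1.95e-07), while in GFP negative pools the stage difference was -0.17 ± 0.36 (adjusted p = 0.723), or 0.03 after quantile normalization. The difference between these was 3.08 ± 0.51 (adjusted p = 0.00031).

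Meg3, the noncoding RNA downstream of Dlk1, was at 287 to 474 RPKM in E13.5 GFP positive pools (median 366) and at 506 to 678 in E13.5 GFP negative pools (median 593). It was at 15.99 to 32.1 RPKM in E10.5 GFP positive pools (median 24.6) and at 127.4 to 256 in E10.5 GFP negative pools (median 158.7). The 4 groups did not overlap. Meg3 was lower in GFP positive pools at E13.5 by -0.66 ± 0.16 (adjusted p = 0.0114) and at E10.5 by -2.78 ± 0.16 (adjusted p = 3.3e-12), and these differed between stages by 2.12 ± 0.23 (adjusted p = 1.08e-06). With stage it rose by 3.92 ± 0.16 in GFP positive pools (adjusted p = 2.67e-16) and by 1.80 ± 0.16 in GFP negative pools (adjusted p = 1.39e-09).

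**Figure D2:**
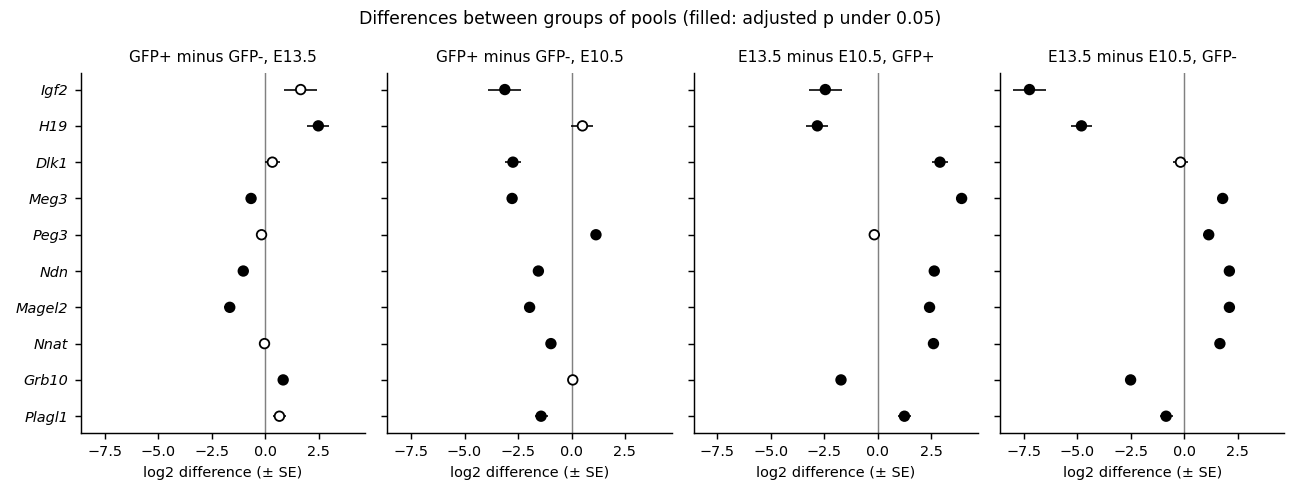
Log2 differences of the 10 imprinted genes between groups of pools on the log2(RPKM + 1) scale, with bars of 1 SE from the limma model of 24 pools, and filled points at an adjusted p under 0.05. Ndn, Magel2 and Meg3 lie left of 0 in both GFP comparisons and right of 0 in both stage comparisons, and Igf2, H19 and Grb10 lie left of 0 in both stage comparisons.

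Ndn, which encodes necdin, a MAGE family protein of postmitotic neurons, was at 720.2 to 1007 RPKM in E13.5 GFP positive pools (median 908) and at 1631 to 2081 in E13.5 GFP negative pools (median 1792). It was at 112.9 to 168.99 RPKM in E10.5 GFP positive pools (median 142.1) and at 326 to 520.03 in E10.5 GFP negative pools (median 426). No group overlapped another. The GFP positive pools were lower by -1.02 ± 0.11 at E13.5 (adjusted p = 5.27e-07) and by -1.55 ± 0.11 at E10.5 (adjusted p = 1.95e-10), and the difference between stages of 0.53 ± 0.16 fell just short of the test (adjusted p = 0.0507). It passed in 7 of the 24 fits without 1 pool (adjusted p = 0.0194 to 0.0952) and in 4 of 8 other processing settings, with adjusted p from 0.0236 to 0.132. Ndn rose with stage by 2.64 ± 0.11 in GFP positive pools (adjusted p = 4.15e-16) and by 2.11 ± 0.11 in GFP negative pools (adjusted p = 1.55e-13).

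Magel2, the MAGE family gene beside Ndn, whose protein acts in the recycling of endosomal membrane proteins, stood far lower than Ndn in RPKM. It was at 32.6 to 48.6 in E13.5 GFP positive pools (median 36.7) and at 102.8 to 153.5 in E13.5 GFP negative pools (median 125.01). In E10.5 GFP positive pools it was at 3.90 to 17.6 (median 5.28) and in E10.5 GFP negative pools at 16.99 to 40.4 (median 29.3). The E13.5 groups were apart, and the E10.5 groups overlapped by a single pool on each side. Differences between GFP classes were -1.65 ± 0.25 at E13.5 (adjusted p = 5.07e-05) and -1.96 ± 0.25 at E10.5 (adjusted p = 1.97e-06). The rise with stage was 2.42 ± 0.25 in GFP positive pools (adjusted p = 6.56e-09) and 2.11 ± 0.25 in GFP negative pools (adjusted p = 1.03e-07), with 0.30 ± 0.35 between them (adjusted p = 0.714).

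Nnat, which encodes neuronatin, a small membrane protein of the endoplasmic reticulum, had the highest RPKM of the 10 in every group. It was at 4330.3 to 4939 in E13.5 GFP positive pools (median 4671) and at 4132 to 5189 in E13.5 GFP negative pools (median 4827), where the groups overlapped almost fully (-0.03 ± 0.12, adjusted p = 0.931, and 0.32 after quantile normalization). It was at 616 to 934 RPKM in E10.5 GFP positive pools (median 801) and at 1092 to 2095 in E10.5 GFP negative pools (median 1463), with no overlap. The E10.5 difference was -0.96 ± 0.12 (adjusted p = 1.22e-06), and it differed from that at E13.5 by 0.93 ± 0.17 (adjusted p = 0.000687). Nnat rose with stage by 2.60 ± 0.12 in GFP positive pools (adjusted p = 1.1e-15) and by 1.67 ± 0.12 in GFP negative pools (adjusted p = 1.81e-11). Blcap, whose reads may be shared with Nnat, also rose in GFP positive pools, to 118.3 ± 8.60 RPKM at E13.5 against 35.97 ± 8.55 at E10.5 (SD, n = 6; limma adjusted p = 1.17e-11).

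Peg3, a large zinc finger protein, was at 324 to 433 RPKM in E13.5 GFP positive pools (median 370.5) and at 262 to 507 in E13.5 GFP negative pools (median 443). It was at 333 to 492 RPKM in E10.5 GFP positive pools (median 445) and at 66.5 to 340 in E10.5 GFP negative pools (median 225). The first 3 groups shared a range, and 5 of the 6 E10.5 GFP negative pools lay below it. At E10.5 Peg3 was higher in the GFP positive class by 1.14 ± 0.25 (adjusted p = 0.00175) but not past the test at E13.5 (-0.17 ± 0.25, adjusted p = 0.778), and the difference between stages was -1.31 ± 0.35 (adjusted p = 0.0222). It rose with stage in GFP negative pools by 1.14 ± 0.25 (adjusted p = 0.000426), while in GFP positive pools the difference was -0.17 ± 0.25 (adjusted p = 0.602), or 0.10 after quantile normalization.

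Single cells are described without tests, because the cells of a stage carry no animal label and form 1 sample. A gene was taken as present in a cell at an RPKM of at least 10, and intervals are exact 95% Clopper-Pearson intervals, which cover counting error only. The rough depth of the cells was 0.378 to 7.28 M reads. From E10.5 to E13.5 the median cell had 5748, 3567, 4266 and 4287 genes at an RPKM of 1 or more, and 4, 5, 5 and 5 of the 10 imprinted genes present. By the same presence rule, 0 of 550 cells held 3 or more of the markers that would class it as mesenchyme, endothelium or microglia, and 0 met the globin rule for red blood cells.

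Presence of Igf2 and H19 was highest at E10.5. Igf2 was present in 18.2% of cells at E10.5 (25 cells, interval 12.2 to 25.7), and in 2 cells at each of E11.5 (2.22%), E12.5 (1.12%) and E13.5 (1.38%). Among the 25 E10.5 cells the median was 119.9 RPKM and the highest 2072. Of them, 4 had 1 mesenchyme or pericyte marker present and 0 had more, 0 had an endothelium or microglia marker and 5 had a red blood cell gene. Of the other E10.5 cells, 15 had a mesenchyme or pericyte marker, 13 an endothelium marker, 0 a microglia marker and 16 a red blood cell gene. H19 was present in 27.7% of E10.5 cells (interval 20.4 to 36.03), 2.22% of E11.5 cells, 8.43% of E12.5 cells and 6.21% of E13.5 cells.

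Grb10 was present in 91.97% of E10.5 cells (interval 86.1 to 95.9), 54.4% of E11.5 cells, 34.8% of E12.5 cells and 30.3% of E13.5 cells (interval 22.99 to 38.5). Meg3 ran the other way, with 21.9% (interval 15.3 to 29.8), 63.3%, 78.1% and 77.9% (interval 70.3 to 84.4) at the same stages. Dlk1 was present in 10.2%, 37.8%, 39.3% and 34.5%, and Magel2 in 15.3%, 44.4%, 42.1% and 33.8%. Both were thus lowest at E10.5, and the intervals of the later stages overlapped. Ndn was present in 60.6%, 62.2%, 81.5% and 88.3%, and Nnat in 67.9%, 91.1%, 96.6% and 95.2%. The median level of Nnat over all cells was 185 RPKM in E10.5 cells, 1668 in E11.5 cells, 2936 in E12.5 cells and 4073 in E13.5 cells. Peg3 was present in 77.4%, 54.4%, 67.98% and 69.7%, and Plagl1 in 16.1%, 23.3%, 20.8% and 16.6%, in no steady order.

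**Figure D3:**
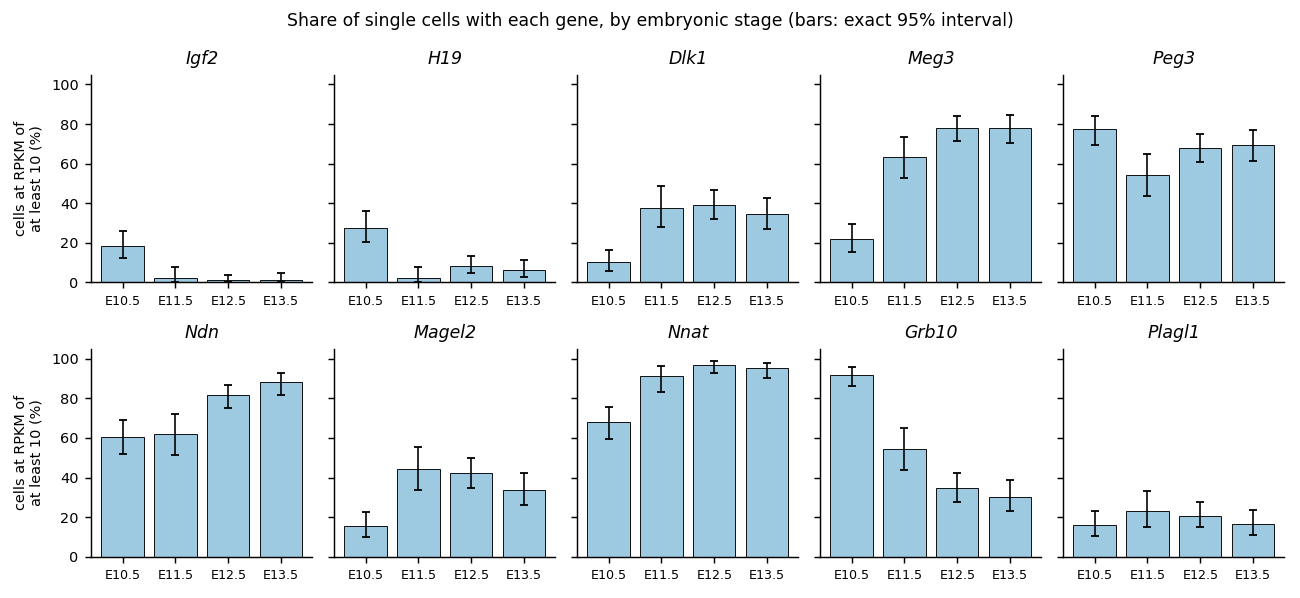
Percent of single cells with each imprinted gene at an RPKM of at least 10, by stage from E10.5 to E13.5, with exact 95% intervals. Igf2 and Grb10 are highest at E10.5, and Meg3 and Nnat are lowest there.

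Cells were next divided by genes outside the set, with Sox2 as a progenitor marker and Stmn2 as a neuronal marker. At E10.5, 53 cells had Sox2 without Stmn2 and 8 the reverse. Stmn2 without Sox2 was found in 74.2% of E12.5 cells and 82.1% of E13.5 cells, and Sox2 without Stmn2 in only 8 and 6 cells. Grb10 was present in 27 of the Stmn2 cells (20.5%) and 8 of 8 Sox2 cells at E12.5, and in 25 (21.01%) and 5 of 6 at E13.5. At E11.5 it was in 19 of 52 Stmn2 cells and 10 of 11 Sox2 cells, and at E10.5 in 6 of 8 and 51 of 53. Magel2 had the opposite pattern, in 5 of 8 Stmn2 cells and 6 of 53 Sox2 cells (11.3%) at E10.5, 37 of 52 Stmn2 cells and 0 of 11 Sox2 cells at E11.5, 54.5% and 0 of 8 at E12.5, and 40.3% and 0 of 6 at E13.5. The counts of 0 among few later Sox2 cells have upper exact limits of 28.5%, 36.9% and 45.9%.

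Meg3 was present in 87.9% of Stmn2 cells and 5 of 8 Sox2 cells at E12.5, and in 89.1% and 2 of 6 at E13.5. At E11.5 it was in 41 of 52 and 6 of 11, and at E10.5 in 5 of 8 and 16 of 53. Ndn was in 94.7% and 2 of 8 at E12.5, in 94.1% and 5 of 6 at E13.5, in 47 of 52 and 2 of 11 at E11.5, and in 6 of 8 and 37 of 53 at E10.5, where the classes were close. Nnat was present in every Stmn2 cell of all stages, 311 of 311, and in 64 of 78 Sox2 cells (82.1%). Plagl1 was in 14.4% of Stmn2 cells and 4 of 8 Sox2 cells at E12.5, in 12.6% and 3 of 6 at E13.5, in 6 of 52 and 6 of 11 at E11.5, and in 2 of 8 and 10 of 53 at E10.5. Peg3 was in 72.7% and 6 of 8 at E12.5, in 71.4% and 4 of 6 at E13.5, in 31 of 52 (59.6%) and 10 of 11 (90.9%) at E11.5, and in 6 of 8 and 42 of 53 at E10.5.

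Cells with Th and Nr4a2, genes of dopamine neurons, were set beside cells with Barhl1, a gene of the subthalamic lineage, that lacked this combination. Dlk1 was present in 10 of 12 Th and Nr4a2 cells (83.3%, interval 51.6 to 97.9) and 16 of 50 Barhl1 cells (32%, interval 19.5 to 46.7) at E12.5. At E13.5 it was in 13 of 20 (65%, interval 40.8 to 84.6) and 8 of 50 (16%, interval 7.17 to 29.1), so the intervals of the classes were apart at both stages. At E11.5 it was in 4 of 9 and 5 of 24. Meg3 was in 19 of 20 Th and Nr4a2 cells and 34 of 50 Barhl1 cells at E13.5, and in 10 of 12 and 40 of 50 at E12.5. Magel2 was in 2 of 20 (10%) and 19 of 50 (38%) at E13.5, and in 6 of 12 and 22 of 50 at E12.5. Plagl1 was in 0 of 20 and 12 of 50 at E13.5, and in 1 of 12 and 11 of 50 at E12.5. For Meg3, Magel2 and Plagl1 the intervals of the classes overlapped at E12.5 and at E13.5. At E13.5 they were 1.23 to 31.7 and 24.7 to 52.8 for Magel2, and 0 to 16.8 and 13.1 to 38.2 for Plagl1. A class set by 2 genes and one set by 1 gene differ in width, and the spread between embryos is not known.

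**Figure D4:**
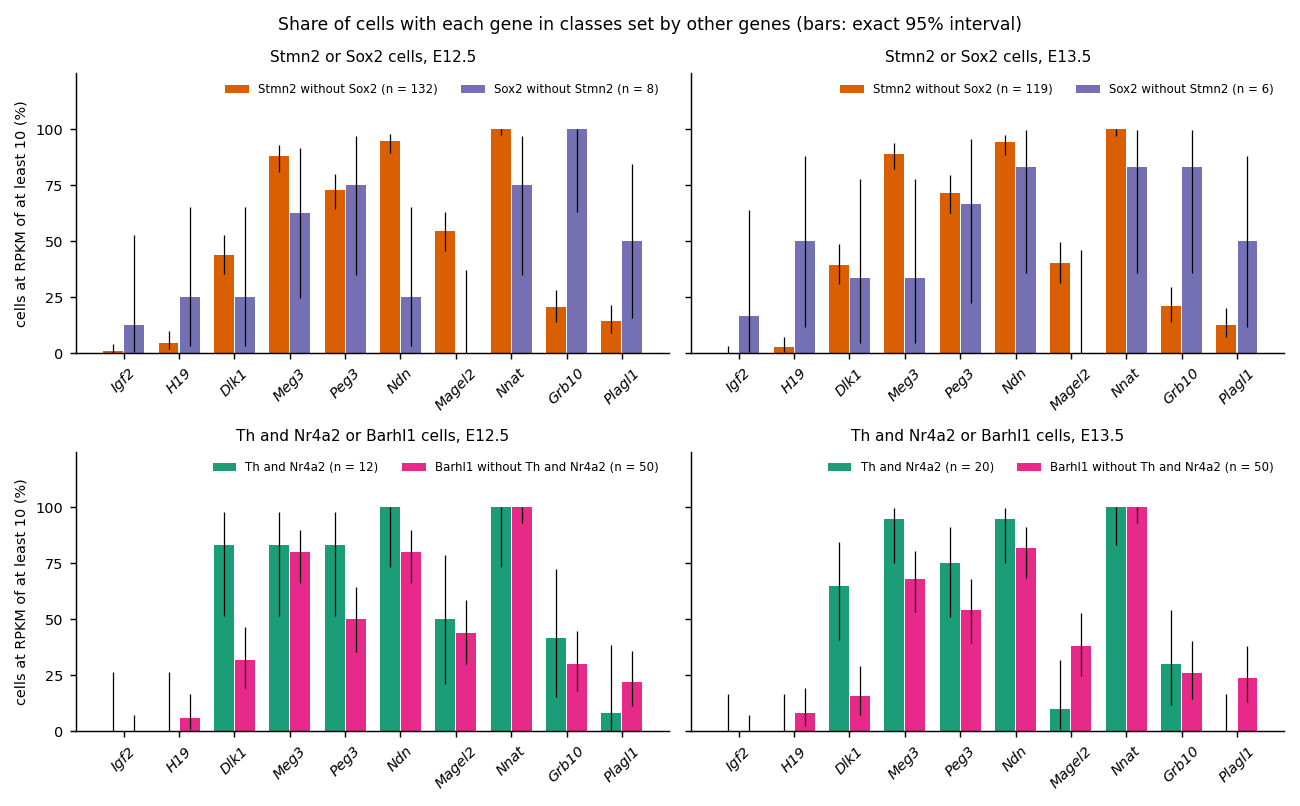
Percent of cells with each imprinted gene at an RPKM of at least 10 at E12.5 and E13.5, in Stmn2 and Sox2 cells (upper panels) and in Th and Nr4a2 and Barhl1 cells (lower panels), with exact 95% intervals and cell numbers in the legends. Grb10 is higher in Sox2 cells, Magel2 is absent from the 8 and 6 Sox2 cells, and Dlk1 is higher in Th and Nr4a2 cells.

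The EGFP transcript gave a class nearer to the sort of the pools. Igf2 was present in 21.4% of E10.5 cells with EGFP (22 cells) and 3 of 34 without (8.82%), with overlapping intervals (13.9 to 30.5 and 1.86 to 23.7). The mean level ran the other way, at 54.9 RPKM in cells with EGFP and 66.6 in cells without. Both medians were 0, the second mean rests mainly on 3 cells, and the SD over all E10.5 cells was 246 RPKM. In pools of that stage Igf2 was lower in the GFP positive class. H19 was in 33.01% of E10.5 cells with EGFP and 11.8% without, and at E13.5 in 8 of 39 (20.5%) and in 1 cell without (0.943%). Dlk1 was in 5.83% of E10.5 cells with EGFP and 23.5% without, and Meg3 in 15.5% and 41.2%, the same directions as in the pools. Peg3 (82.5% and 61.8%) and Plagl1 (11.7% and 29.4%) also had the direction of the E10.5 pools. Ndn ran against the pools in presence, at 65.05% of E10.5 cells with EGFP and 47.1% without. Its mean level ran with them, at 147.8 and 571.8 RPKM. Nnat was close in the classes, at 66.99% and 70.6%. Grb10 at E13.5 was in 53.8% of cells with EGFP and 21.7% without.

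Neighbours on the chromosome were among the pairs most alike across cells. Of the 45 pairs of members, Ndn and Magel2 had the highest mean of the 4 within-stage Spearman correlations (0.485, from 0.202 at E10.5 to 0.683 at E11.5), Dlk1 and Meg3 the second (0.422, lowest 0.371 and highest 0.516), and Igf2 and H19 the fourth (0.309). Meg3 and Ndn, on different chromosomes, had the third (0.381). Each correlation is over the cells of a stage, in which all genes share each cell's library and depth. Gm32061 spans both Ndn and Magel2, and its part in their likeness was not tested. Magel2 was rarely found without Ndn: 17 of 21 Magel2 cells at E10.5, 40 of 40 at E11.5, then 75 of 75 and 48 of 49 had Ndn, whereas 60.6% to 88.3% of all cells of a stage did. Of Dlk1 cells, 7 of 14, 30 of 34, 68 of 70 and 49 of 50 had Meg3, against 21.9% to 78.1% of all cells. Stmn2 cells without Sox2 came nearer to these shares. From E11.5 to E13.5 they had Ndn in 90.4%, 94.7% and 94.1%, and Meg3 in 78.8%, 87.9% and 89.1%. The part of a shared neuronal class in these pairs was not tested. At E10.5, 14 of 25 Igf2 cells had H19, against 27.7% of all cells, and their correlation was 0.318. Only 2 cells had Igf2 at each later stage, of which 1, 1 and 2 also had H19. The mean correlation of this pair thus rests on few cells with Igf2. The lowest mean correlation was that of Ndn and Grb10 (-0.332), which was near 0 at E10.5 and between -0.40 and -0.47 at the other stages.

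**Figure D5:**
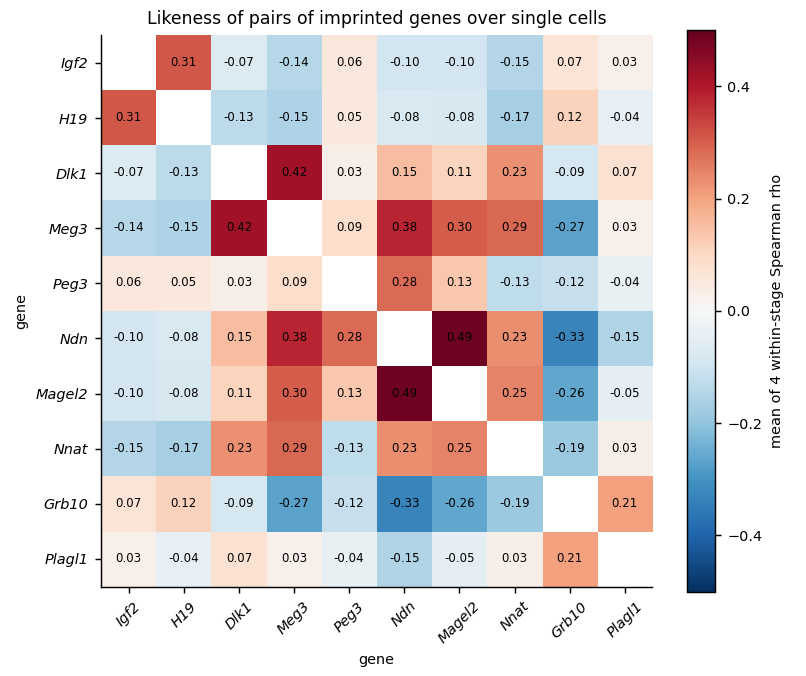
Mean of the 4 within-stage Spearman correlations over single cells for the 45 pairs of imprinted genes, as a colour scale with the value in each field. Ndn with Magel2 (0.485) and Dlk1 with Meg3 (0.422) are highest, and Grb10 is negative with Ndn, Meg3, Magel2 and Nnat.

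Among the other genes compared, about 10972 for each member, those most alike to Ndn were Rtn1 (mean correlation 0.536), Ina (0.521) and Tmsb10 (0.497), and to Meg3 Rtn1 (0.453), Stmn3 (0.451) and Ina (0.441). Nearest to Magel2 were Ndn, Ina (0.432) and Gap43 (0.397), to Nnat Tubb3 (0.403), Gm11223 (0.354) and Stmn3 (0.341), and to Dlk1 Meg3, Sez6l (0.2996) and Mapt (0.277). For Grb10 they were Vim (0.425), Notch1 (0.415) and Phgdh (0.404), with values of only 0.05, 0.11 and 0.14 at E10.5. Plagl1 was nearest to Lix1 (0.287), Phgdh (0.286) and Ttyh1 (0.284), and Peg3 to Tusc3 (0.354), Ly6h (0.286) and Ndn (0.285). Values for Igf2 (Folr1, Pltp and Lipg) and H19 (Sulf1, Adamts3 and Slit2) did not pass 0.310 and rest on few cells with these genes.

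Other imprinted genes were read from a list of 39, of which 28 were tested. In the GFP comparison 0 passed as higher and 4 as lower at E13.5, and 2 as higher and 8 as lower at E10.5, with medians of -0.12 and -0.29. Of all genes, 3.42% were higher and 3.74% lower at E13.5, and 4.51% and 8.64% at E10.5. Snrpn, a splicing protein gene of the cluster that holds Ndn and Magel2, averaged 218 ± 24.1 RPKM in E13.5 GFP positive and 312 ± 17.97 in E13.5 GFP negative pools (-0.52 ± 0.12, adjusted p = 0.0076), and 69.9 ± 16.999 in E10.5 GFP positive and 118.7 ± 14.8 in E10.5 GFP negative pools (-0.78 ± 0.12, adjusted p = 4.48e-05; SD, n = 6). Cdkn1c, an inhibitor of the cell cycle, averaged 68.3 ± 13.47 RPKM in E13.5 GFP positive and 108.6 ± 13.504 in E13.5 GFP negative pools (-0.67 ± 0.15, adjusted p = 0.00448), and 97.3 ± 16.3 in E10.5 GFP positive and 159.3 ± 35.8 in E10.5 GFP negative pools (-0.69 ± 0.15, adjusted p = 0.00179). Peg10 was also lower in GFP positive pools at both stages (-0.81 ± 0.23 at E13.5, adjusted p = 0.0284, and -1.17 ± 0.23 at E10.5, adjusted p = 0.000607).

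With stage, 11 of the 28 were higher at E13.5 and 9 lower in GFP positive pools, and 10 higher and 7 lower in GFP negative pools, with medians of 0.21 and 0.08. Over all genes these shares were 22.1% and 29.6% in GFP positive pools, and 19.7% and 26.9% in GFP negative pools, so the counts of lower genes were near the background. Nap1l5 averaged 63.1 ± 11.49 RPKM in E13.5 GFP positive pools, against 9.81 ± 3.35 in E10.5 GFP positive pools (2.61 ± 0.22, adjusted p = 1.71e-10), and rose in GFP negative pools by 2.37 ± 0.22 (adjusted p = 1.9e-09). Usp29, which lies beside Peg3, rose by 3.10 ± 0.33 (adjusted p = 1.28e-08) and 2.22 ± 0.33 (adjusted p = 4.03e-06), and Zdbf2 by 2.20 ± 0.28 (adjusted p = 2.42e-07) and 1.49 ± 0.28 (adjusted p = 8.86e-05). Mest, an abundant paternally expressed gene, averaged 832 ± 123.4 RPKM in E13.5 GFP positive pools, against 1689.8 ± 269.9 in E10.5 GFP positive pools (-1.02 ± 0.16, adjusted p = 8.61e-06), and differed by -0.75 ± 0.16 in GFP negative pools (adjusted p = 0.000465). Peg12 fell, with differences of -2.86 ± 0.27 in GFP positive (adjusted p = 1.15e-09) and -2.22 ± 0.27 in GFP negative pools (adjusted p = 1.44e-07), as did Sgce with -1.33 ± 0.21 (adjusted p = 7.41e-06) and -0.92 ± 0.21 (adjusted p = 0.00075). The stage difference of the GFP difference passed for 2 of the 28, with 1 higher and Asb4 lower (-1.46 ± 0.34, adjusted p = 0.00744), against 5.83% of all genes.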

How the data were processed

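RNA of 24 pools and 550 single cells was measured with Smart-seq2, per the labels. STAR 2.3.0 and mm10 are listed, per the submitters' processing notes, while the counter and annotation used for the deposited values are not named in these sources. The table of pools holds RPKM as deposited by the authors, and the table of single cells holds log2 values that the authors formed as log2(RPKM + 0.001), which were turned back into RPKM. Files without counts gave only a rough depth: a median of 24.0% of low values in cells and 12.1% in pools stood no more than 0.05 from a whole read count, where chance gives 10%, so no pool depth is given.

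The genes tested had an RPKM of 1 or more in 6 or more pools. The limma package (3.58.1, R 4.3.3) was run on log2(RPKM + 1) of all 24 pools, with 4 group means, a variance trend and Benjamini-Hochberg adjustment, and the method was tested on simulated data. Cell shares, classes and correlations were computed with Python 3.11.15, pandas 2.3.3, numpy 2.4.6 and scipy 1.17.1. Gene positions are from GENCODE M21. The members and lists were chosen with earlier results of these data known. All 10 members were named in each comparison, and of the other lists up to 4 called genes per direction with the largest difference and a higher group averaging 10 RPKM or more. For likeness over cells, the 3 genes with the highest mean correlation were named, among genes present in at least 20 cells and at least 3 of each stage. Alternatives were other pseudocounts, filters, scalings, variance models, fits of only the groups compared, and fits without 1 pool. Snurf, Rian, Mirg, Kcnq1ot1, Slc22a18, Peg13 and Commd1 were not analysed here. Blcap was singled out beside Nnat because the genes overlap.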

Additional observations from a re-analysis of the deposited data

Results flagged for a closer look

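For 7 of the 10 genes the difference between GFP positive and GFP negative pools was itself different between E13.5 and E10.5 in the limma test of that difference. The values on the log2 scale, E13.5 minus E10.5, were 4.78 for Igf2, 3.08 for Dlk1, 2.12 for Meg3, 2.09 for Plagl1, 0.93 for Nnat, 0.78 for Grb10 and -1.31 for Peg3. In the same pools 11 of 12 pan-neuronal genes and 5 of 7 tested mesenchyme and pericyte genes had a higher GFP difference at E13.5, with medians of 2.20 and 3.01. Over all genes 5.83% passed this test, 3.93% as higher and 1.9% as lower, with a median of -0.01. The part of these cell types in the result was not tested. In Dixon's test for a sample far from its group, 2 of 40 sets of 6 pools were marked, where chance marks about 1 in 20. Igf2 was at 73.7 RPKM in E13.5 GFP positive pool 4, with the next pool at 9.52. The summed mesenchyme and pericyte level of pool 4 was 4.23 RPKM, the highest of its group. E13.5 GFP negative pools 2 and 6 had sums of 6.13 and 4.41 RPKM, with Igf2 at 0 and 1.10. No marker of that list reached 10 RPKM in any E13.5 pool. Plagl1 was at 25.2 RPKM in E10.5 GFP positive pool 3, with the next pool at 12.9.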

How the results depend on the processing

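Counts of members and of all genes called in each comparison stayed within 1.5 times under every alternative run. Of 50 member differences, 4 changed sign, and none of them passed the test in either form: Grb10 between GFP classes at E10.5 (-0.00898 rescaled without globin genes), and, after quantile normalization, Nnat between GFP classes at E13.5 (0.32), Peg3 between stages in GFP positive pools (0.0993) and Dlk1 between stages in GFP negative pools (0.0286). In 1200 fits without 1 pool, 1169 differences kept their direction and side of the threshold, 23 no longer passed and 8 newly passed, all of Grb10, Ndn or Plagl1. The median of all genes in the stage comparisons, -0.14 for the GFP positive class and -0.11 for the GFP negative class, became -0.07 and -0.01 after quantile normalization, and 8 housekeeping genes had medians of -0.75 and -0.78. Counting a gene as present at an RPKM of 1 moved 13 of 40 cell shares beyond their interval, and keeping cells with at least 4000 genes moved 6. E12.5 cells with titles starting with C had Ndn in 73.02% and Magel2 in 33.3%. No paired analysis was possible because the labels give no replicate number, animal or litter.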

Other observations

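Genes that bind, carry or receive Igf2 were also measured, on a list of 20 genes of the insulin-like growth factor pathway of which 17 were tested. At E13.5, 2 were higher in GFP positive pools and 1 lower, and at E10.5, 3 were higher and 4 lower, where 7.15% and 13.1% of all genes passed in either direction. Igfbp2, a secreted protein that binds insulin-like growth factors, averaged 268 ± 61.8 RPKM (SD, n = 6) in E13.5 GFP positive and 97.5 ± 25.97 in E13.5 GFP negative pools (log2 difference 1.47 ± 0.17, limma adjusted p = 1.58e-06). It averaged 1353 ± 206 in E10.5 GFP positive and 362 ± 79.7 in E10.5 GFP negative pools (1.92 ± 0.17, limma adjusted p = 8.64e-09). Igfbp5, of the same family, averaged 114.3 ± 13.6 RPKM in E10.5 GFP positive and 43.1 ± 10.4 in E10.5 GFP negative pools (1.41 ± 0.25, limma adjusted p = 0.000204). It averaged 12.9 ± 7.87 RPKM in E13.5 GFP positive and 17.5 ± 5.49 in E13.5 GFP negative pools. The stage difference of its GFP difference was -1.94 ± 0.36 (limma adjusted p = 0.000839). Igfbp4 was lower in GFP positive pools at E10.5 (-1.09 ± 0.27, limma adjusted p = 0.00657).

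With stage, 2 of the 17 were higher at E13.5 and 8 lower in GFP positive pools, and 4 higher and 8 lower in GFP negative pools, with medians of -0.90 and -1.01. Of all genes 51.7% passed in GFP positive pools, 22.1% as higher and 29.6% as lower, and 46.6% in GFP negative pools, 19.7% as higher and 26.9% as lower. Insr, the insulin receptor, averaged 19.9 ± 6.504 RPKM in E13.5 GFP positive pools, against 7.73 ± 2.62 in E10.5 GFP positive pools (1.25 ± 0.23, limma adjusted p = 6.18e-05), and Grb14, an adaptor related to Grb10, rose by 2.21 ± 0.30 (limma adjusted p = 5.76e-07). Igfbp2 fell by 2.34 ± 0.17 in GFP positive pools (limma adjusted p = 1.76e-11) and by 1.90 ± 0.17 in GFP negative pools (limma adjusted p = 1.74e-09). Of the RNA-binding proteins that bind Igf2 transcripts, Igf2bp3 fell by 1.78 ± 0.17 in GFP positive (limma adjusted p = 1.54e-09) and by 1.67 ± 0.17 in GFP negative pools (limma adjusted p = 8.37e-09).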
